A study of Aedes albopictus with 6 samples.

Results

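Transcripts of the tumour necrosis factor (TNF) ligand eiger, a Grindelwald receptor and the core kinases of the Jun N-terminal kinase (JNK) cascade were examined in ovaries of Aedes albopictus, the Asian tiger mosquito. These are 8 genes of 23529 with values in the deposited table, picked by gene symbol: eiger, a grindelwald-like gene, 2 copies of MAP3K7, 2 copies of hemipterous, a MAP kinase kinase 4-like gene and a stress-activated protein kinase JNK gene. All 8 were among the 15540 genes that passed the filter on low counts. The 3 overexpression libraries (OE) came from ovaries labelled Aalpi18529 overexpression, which the series describes as treatment with a mimic of this PIWI-interacting RNA, a class of small RNAs bound by PIWI proteins. The 3 control libraries (NC) came from ovaries labelled control, with no further detail of what they received. The labels do not state strain, age, hours after the blood meal or the number of females per library, so p-values measure the spread between these libraries, which may be technical. The title of the series places JNK-dependent death of nurse cells, the germline cells that feed the oocyte, between Gadd45a and yolk formation, which is the question the cascade bears on.

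In Drosophila, Eiger is the TNF-family ligand that binds the receptors Grindelwald and Wengen, and signals from them run through adaptor proteins to a relay of kinases. A MAP kinase kinase kinase such as TAK1 (MAP3K7) phosphorylates the MAP kinase kinases Hemipterous and MKK4, which in turn phosphorylate JNK, called Basket in the fly. JNK activates AP-1, a transcription factor made of Jun and Kayak (Fos), and is known for driving apoptosis, stress responses and epithelial movements. Kinase activity in this relay is set by phosphorylation, which RNA-seq does not measure.

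Along the cascade the ligand was higher with overexpression, the 7 other genes had lower mean levels, and none of the 8 passed the test. The quasi-likelihood test of edgeR, with Benjamini-Hochberg adjustment over 15540 genes, called 2 genes in the whole table (0.0129%) at an adjusted p under 0.05, and 0 of the 8. With DESeq2, 15 genes were called (0.0758%), and again 0 of the 8, with 3 of them at an unadjusted p under 0.05. At an unadjusted p under 0.05, eiger was higher (1 of 8, against 2.42% of all genes tested) and 1 hemipterous copy and JNK were lower (2 of 8, against 2.5%). All 3 OE libraries lay above all 3 controls for eiger (5.25% of all genes) and below them for 4 of the 8 (5.12% of all genes). The median log2 fold change of the 8 was -0.20, beside 0.00 for all genes tested. The 8 were chosen with earlier results of these data known, and the kinase copies share reads as described below, so these shares are a description.

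**Figure D1:**
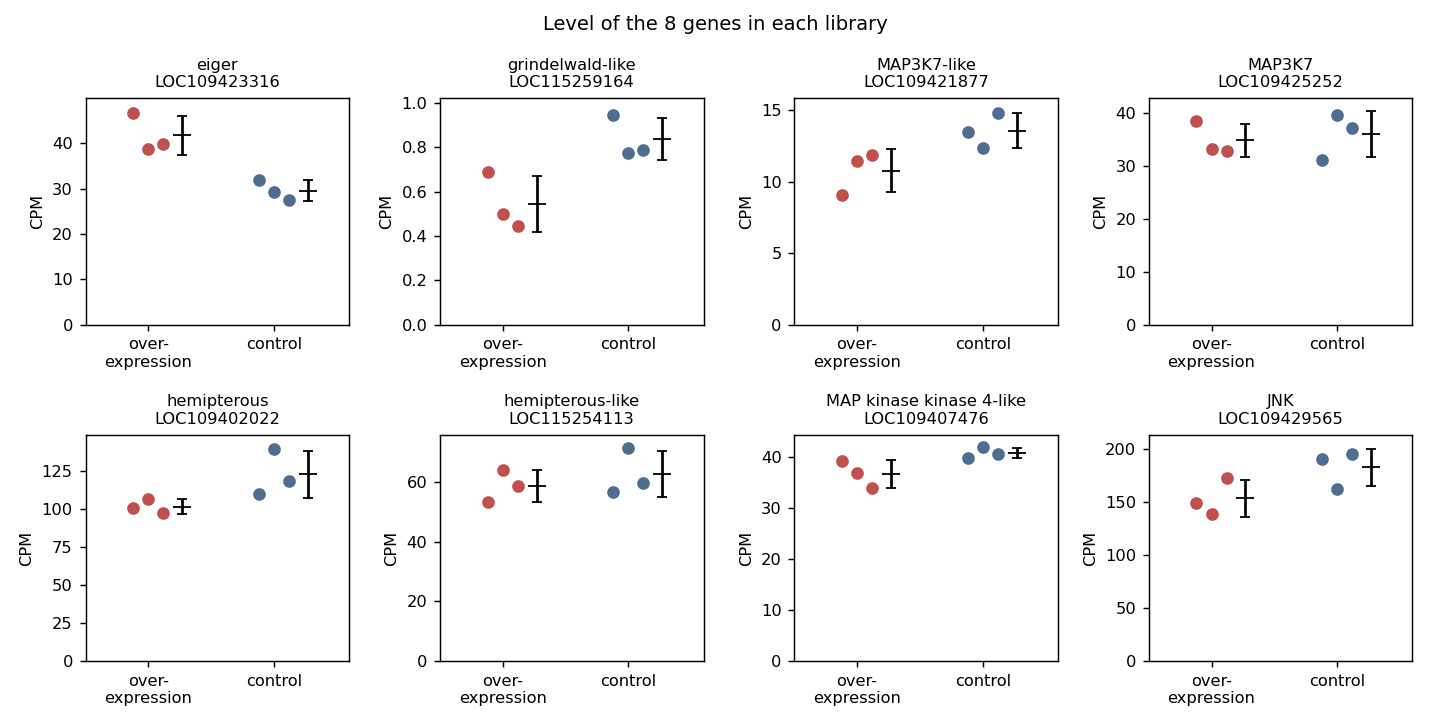
Level of each of the 8 genes in CPM (counts scaled by the library total, not per length) in the 3 overexpression libraries (red) and the 3 control libraries (blue), with the mean and SD beside each group in black; each panel has its own axis from 0. Eiger is the gene whose overexpression points all lie above the controls, at 38.7 to 46.6 CPM against 27.4 to 32.0 CPM.

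Eiger (LOC109423316, gene ID 109423316, scaffold NW_021838153.1, positions 83555441 to 83621116, 2 listed transcripts) is the ligand that opens the cascade. It had 749, 618 and 619 counts in OE libraries 1, 2 and 3, and 507, 479 and 452 counts in NC libraries 1, 2 and 3. Every OE library thus held more eiger reads than every control, with OE library 1 the highest. In CPM, counts scaled by the library total, the level was 41.7 ± 4.28 in OE ovaries and 29.5 ± 2.30 CPM in NC ovaries (SD, n = 3 each). That is a 1.41-fold level, with a 95% interval of 1.20 to 1.66 from the edgeR fit and a log2 fold change of 0.50 ± 0.10 (SE). The unadjusted edgeR p was 0.00116, rank 18 among the genes tested, and the adjusted p was 0.963. Permuting the libraries exactly (two-sided) gave p = 0.1, the lowest value that groups of 3 can reach. The log2 fold change was positive in each of the 12 alternatives, between 0.41 (without OE library 1) and 0.56, and the adjusted p lay between 0.0832 (DESeq2) and 0.998. Eiger is the only one of the 8 with whole-number counts in all 6 libraries, so its value shows no sign of reads divided with another gene. In whole ovaries, fewer cells of a type and less RNA per cell cannot be told apart, here and for every gene below.

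By likeness of log2 CPM over the 6 libraries, among 11433 genes with at least 5 CPM, the 3 genes nearest to eiger were LOC109424350 (zinc finger protein 43-like), LOC109425023 (isopentenyl-diphosphate Delta-isomerase 1, an enzyme of isoprenoid synthesis) and LOC115257199 (cyclin-J-like). Their Pearson r values were 0.996, 0.988 and 0.987, a description over 6 points that share their libraries. The size of the difference was unlike that of eiger, with log2 fold changes of 0.08, 0.11 and 0.14, and none was called by edgeR (adjusted p 0.966, 0.963 and 0.963).

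The receptor step was read at very low depth. The grindelwald-like gene LOC115259164 (scaffold NW_021839044.1, positions 65195 to 95338) had estimated counts of 11.03, 8 and 6.91 in OE libraries and of 15.03, 12.71 and 13 in NC libraries. Each OE library lay below each control, by a few reads. The level was 0.544 ± 0.127 CPM in OE ovaries and 0.837 ± 0.0958 CPM in NC ovaries (SD, n = 3 each). The log2 fold change was -0.62 ± 0.34 (SE), with a 95% interval of -1.40 to 0.16 and an edgeR adjusted p of 0.963. At this depth the interval held both equal levels and an OE level of 0.380 of the control.

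A second grindelwald-like gene, LOC109417032 (scaffold NW_021838687.1, positions 29803702 to 29812323), did not pass the filter, with 1.97, 2 and 0 estimated counts in OE libraries and 4.97, 3.29 and 4 in NC libraries. Summed over both genes, Grindelwald had 13, 10 and 6.91 counts in OE libraries and 20, 16 and 17 in NC libraries. The total gave a log2 fold change of -0.78 ± 0.34 (SE), with a 95% interval of -1.56 to 0.00, an unadjusted edgeR p of 0.0503 and an adjusted p of 0.964. The other TNF receptor of the fly, wengen (LOC109401930), had 256, 130 and 144 counts in OE libraries and 176, 201 and 140 in NC libraries. OE library 1 was the highest of the 6 and OE library 2 the lowest, so the groups overlapped, and edgeR gave a log2 fold change of 0.07 ± 0.27 (SE; adjusted p 0.992).

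MAP3K7, known as TAK1 in mammals and Tak1 in the fly, is the kinase that takes the signal from the adaptors to the MAP kinase kinases. Its 2 copies lie side by side on scaffold NW_021837047.1, 11.4 kb apart. The MAP3K7-like copy LOC109421877 (positions 1450807 to 1546552) had estimated counts of 145.28, 182.16 and 185.14 in OE libraries and of 213.78, 203.01 and 244.63 in NC libraries. All OE values lay below all NC values, with OE library 1 the lowest. The level was 10.8 ± 1.53 CPM in OE ovaries and 13.6 ± 1.22 CPM in NC ovaries (SD, n = 3 each). In edgeR the difference was -0.33 ± 0.15 (SE) on the log2 scale, with a 95% interval of -0.68 to 0.01 and an adjusted p of 0.963. Without OE library 1 the log2 fold change was -0.22.

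The neighbouring copy, LOC109425252 (positions 1557987 to 1625930), had 618.17, 528.33 and 510.88 estimated counts in OE libraries and 493.96, 648.4 and 614.54 in NC libraries. The groups overlapped fully, since control 1 was the lowest library and control 2 the highest. At 34.8 ± 3.18 CPM in OE ovaries and 36.0 ± 4.36 CPM in NC ovaries (SD, n = 3 each), its log2 fold change was -0.05 ± 0.11 (SE), with a 95% interval of -0.31 to 0.21. OE library 1 had the lowest count of LOC109421877 but the highest OE count of LOC109425252.

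Hemipterous is the MAP kinase kinase that activates JNK in the fly. The copy described as hemipterous, LOC109402022 (scaffold NW_021837711.1, positions 45206364 to 45231446), had estimated counts of 1611.41, 1702.85 and 1512.53 in OE libraries and of 1745.97, 2284.62 and 1952.74 in NC libraries. Every OE library lay below every control, and control 2 stood highest. The level was 101 ± 4.86 CPM in OE ovaries and 123 ± 15.2 CPM in NC ovaries (SD, n = 3 each), or 82.7% of the control. The log2 fold change was -0.27 ± 0.09 (SE), with a 95% interval of -0.48 to -0.06, an unadjusted edgeR p of 0.0168 and an adjusted p of 0.963. Without control 2 the log2 fold change was -0.17. The unadjusted edgeR p was above 0.05 in 2 of the 6 fits that left out 1 library, at 0.054 without control 2 and 0.0589 without OE library 3.

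The hemipterous-like copy LOC115254113 (the same scaffold, positions 44513118 to 44547963) lies 658.4 kb from it. It had 855.89, 1021.44 and 912.35 estimated counts in OE libraries and 896.7, 1166.77 and 985.18 in NC libraries. The groups overlapped, with control 2 again the highest. The level was 58.6 ± 5.37 CPM in OE ovaries and 62.5 ± 7.73 CPM in NC ovaries (SD, n = 3 each), with a log2 fold change of -0.09 ± 0.11 (SE) and an edgeR adjusted p of 0.971.

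MAP kinase kinase 4 is the other MAP kinase kinase that acts on JNK. The gene LOC109407476 (scaffold NW_021837045.1, positions 30505336 to 30520264) had 630.67, 588.56 and 526.37 estimated counts in OE libraries and 631.63, 685.32 and 668.83 in NC libraries. The groups did not overlap, but OE library 1 and control 1 were nearly equal, at 39.3 CPM in the OE library and 39.8 CPM in the control. Mean levels were 36.7 ± 2.72 CPM in OE ovaries and 40.7 ± 1.02 CPM in NC ovaries (SD, n = 3 each). The log2 fold change was -0.15 ± 0.08 (SE), with a 95% interval of -0.34 to 0.04 and an edgeR adjusted p of 0.963. It was -0.096 without OE library 3.

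JNK, the MAP kinase at the end of the relay, was represented by LOC109429565 (scaffold NW_021837378.1, positions 5040073 to 5298757, 8 listed transcripts). It had estimated counts of 2388.65, 2216.53 and 2680.28 in OE libraries and of 3018.36, 2661.88 and 3213.4 in NC libraries. Scaled for library size, OE library 3 at 172 CPM stood above control 2 at 162 CPM, so the groups overlapped by 1 library on each side. The level was 153 ± 17.1 CPM in OE ovaries and 182 ± 17.5 CPM in NC ovaries (SD, n = 3 each), or 84.0% of the control. On the log2 scale the edgeR difference was -0.25 ± 0.10 (SE), its 95% interval ran from -0.47 to -0.03, and the unadjusted p was 0.0316, with an adjusted p of 0.963. The exact permutation p over libraries was 0.2 (two-sided). In 4 of the 6 fits that left out 1 library the unadjusted edgeR p was above 0.05, at 0.0816 to 0.107, namely without OE library 1 or 2 and without control 1 or 3.

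None of the 6 kinase genes stood alone in the table, and the estimates of the copies were tied to each other. Another MAP3K7 gene (LOC115254050, described as MAP3K7-like), another hemipterous gene (LOC109399720), another MAP kinase kinase 4-like gene (LOC109419238) and 2 further JNK genes (LOC109429982 and the JNK-like LOC109429983) carry the same descriptions. Estimated counts of the kinase copies have decimals, but their sums over all copies of a step were whole numbers to within 0.02 in 6 of 6 libraries for MAP3K7, hemipterous, MAP kinase kinase 4 and JNK. The 2 hemipterous genes among the 8 gave a whole sum in 0 of 6 libraries and the 2 MAP3K7 genes in 1 of 6, so the third copy was needed to complete each sum. For JNK the sum was already whole in 6 of 6 libraries over LOC109429565 and LOC109429982, and LOC109429983 had whole counts of its own. Such whole totals of fractional parts arise when reads that match several copies are divided among them, and the value of 1 copy then depends on the division. For Grindelwald the sum was whole in 5 of 6 libraries. The RefSeq gene table of the later assembly AalbF5, used here for names only, lists 4 of the 8 gene IDs, and by step 1 of 3 MAP3K7, 1 of 3 hemipterous, 1 of 2 MAP kinase kinase 4 and 2 of 3 JNK IDs.

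The share of a step's estimated counts held by each copy moved between libraries, also within a group. Division of reads and differing levels of the copies cannot be told apart here. LOC109429565 held 35.2%, 33.7% and 39.9% of the JNK counts in OE libraries and 45.5%, 36.9% and 45.1% in NC libraries. Control 2 thus lay below OE library 3 and well away from the other controls. Its partner LOC109429982 (positions 6341636 to 6555966 on the same scaffold, 1043 kb away) held 63.2%, 64.7% and 59.1% in OE libraries and 53.4%, 62.1% and 54.0% in NC libraries. In counts, LOC109429982 had 4284.35, 4254.47 and 3970.72 in OE libraries and 3538.64, 4480.12 and 3843.6 in NC libraries, which edgeR gave as a log2 fold change of 0.11 ± 0.08 (SE; adjusted p 0.963). The sign was opposite to that of LOC109429565. The third gene, LOC109429983, read apart from the other two, had 108, 106 and 68 counts in OE libraries and 71, 77 and 65 in NC libraries. Its log2 fold change was 0.44 ± 0.22 (SE), with a 95% interval of -0.06 to 0.93 and an edgeR adjusted p of 0.963, and OE library 3 lay among the controls.

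**Figure D2:**
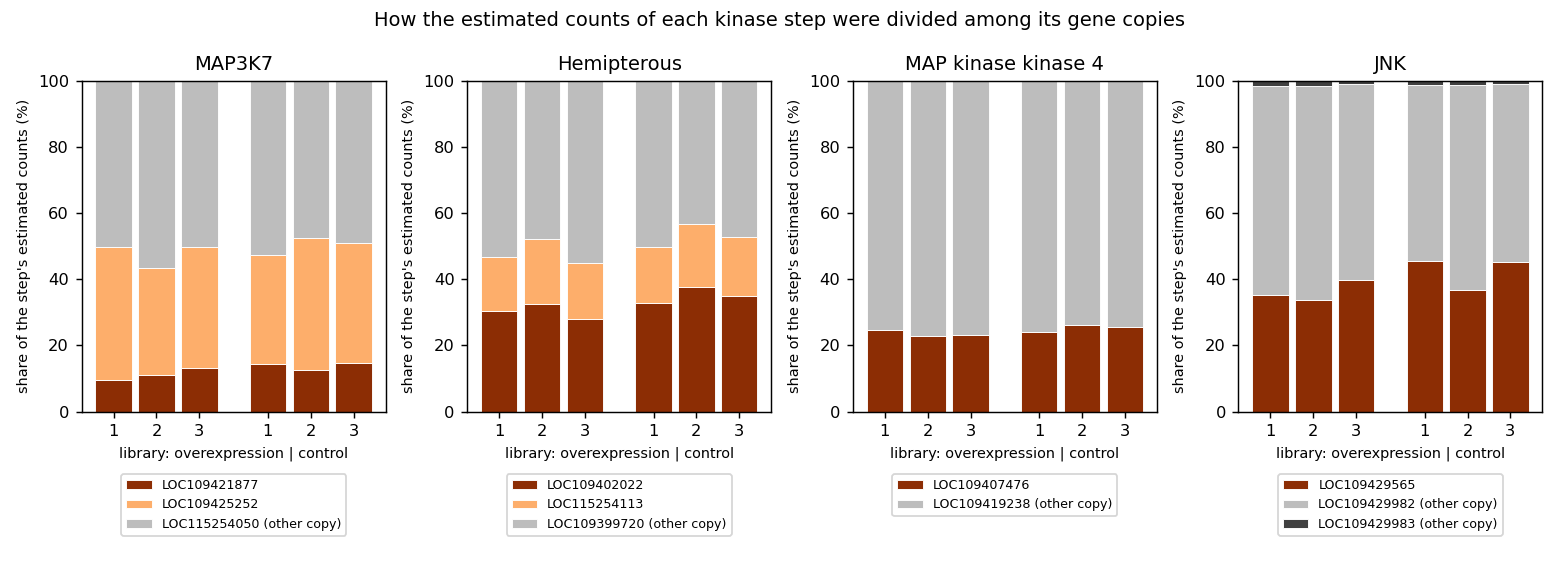
Share of each kinase step's estimated counts (%, not per length) assigned to each gene copy, in overexpression libraries 1 to 3 (left bars) and control libraries 1 to 3 (right bars); red and orange are the copies among the 8 genes, grey and black the other copies. The JNK gene LOC109429565 takes 33.7% to 39.9% in overexpression libraries and 36.9% to 45.5% in control libraries.

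At the hemipterous step, LOC109402022 held 30.5%, 32.6% and 28.1% of the counts in OE libraries and 32.8%, 37.5% and 35.0% in NC libraries. The groups did not overlap, with OE library 2 and control 1 nearly equal, and permuting the libraries exactly gave p = 0.1 for the share (two-sided), the smallest possible. The third copy LOC109399720 (positions 44980387 to 45008117, between the other two on the scaffold) held 53.3%, 47.9% and 55.0% in OE libraries and 50.4%, 43.3% and 47.3% in NC libraries. Its log2 fold change was 0.09 ± 0.08 (SE), opposite in sign to that of LOC109402022, with an edgeR adjusted p of 0.965. At the MAP3K7 step, the third copy LOC115254050 (scaffold NW_021837156.1, positions 32383781 to 32466563) had a log2 fold change of 0.04 ± 0.10 (SE), again opposite in sign to the 2 copies among the 8. For MAP kinase kinase 4, LOC109407476 held 22.9% to 24.6% in OE libraries and 24.0% to 26.1% in NC libraries, and its partner LOC109419238 had a log2 fold change of -0.02 ± 0.06 (SE).

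Summed over all copies, no kinase step was called, the groups overlapped at each, and each 95% interval held 0. This sum, chosen after the data were seen, does not depend on how reads were divided within a step. JNK had 6781, 6577 and 6719 counts in OE libraries and 6628, 7219 and 7122 in NC libraries, or 422 ± 9.80 CPM in OE ovaries and 430 ± 11.5 CPM in NC ovaries (SD, n = 3 each). The JNK total stood at 98.2% of the control, with a log2 fold change of -0.03 ± 0.05 (SE) and a 95% interval of -0.13 to 0.08. LOC109429565 is only a part of this total, on average 36.3% of its counts in OE libraries and 42.5% in NC libraries. The interval of the total is therefore not a test of its -0.25.

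The hemipterous total was 5285, 5225 and 5391.01 counts in OE libraries and 5324, 6085.99 and 5574 in NC libraries. In CPM, OE library 3 at 346 stood above the controls at 336 and 338, and control 2 stood apart at 371. The log2 fold change was -0.06 ± 0.06 (SE), with a 95% interval of -0.19 to 0.07. LOC109402022 is likewise a part, on average 30.4% of these counts in OE libraries and 35.1% in NC libraries. Its -0.27 is not tested by that interval. MAP3K7 summed to 1531, 1640 and 1395.99 counts in OE libraries and 1499, 1626 and 1681 in NC libraries, a log2 fold change of -0.04 ± 0.07 (SE) with a 95% interval of -0.20 to 0.12. MAP kinase kinase 4 summed to 2562, 2572 and 2287 counts in OE libraries and 2632, 2630 and 2609 in NC libraries. OE library 3 alone lay well below the rest in counts, and the log2 fold change was -0.05 ± 0.06 (SE), with a 95% interval of -0.18 to 0.08. The edgeR adjusted p was 0.971 to 0.975 for the 4 kinase totals, fitted in a table of 15533 rows in which 2 (0.0129%) were called. Expressed as folds, the intervals of the 4 totals ran from 0.872 to 1.09, so a change of any kinase step beyond these bounds lay outside the intervals.

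**Figure D3:**
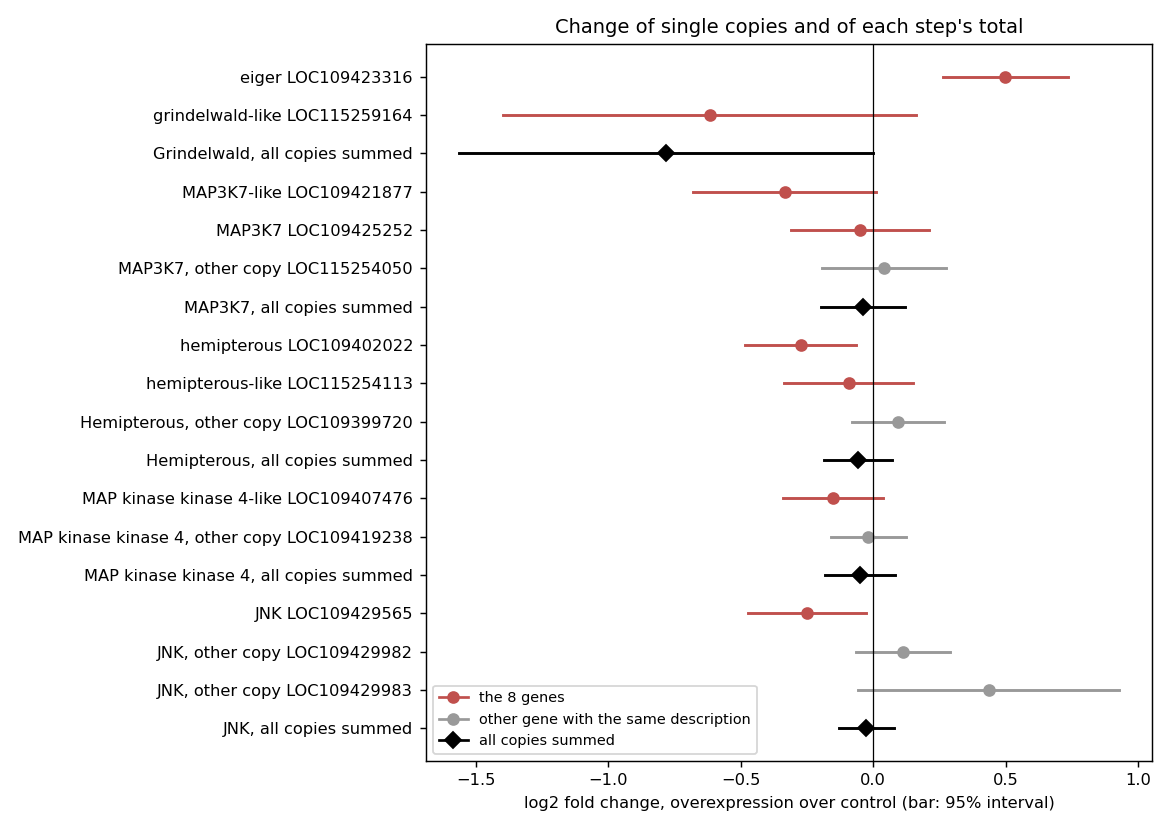
Log2 fold change of overexpression over control with its 95% interval from edgeR, for the 8 genes (red), the other tested genes with the same descriptions (grey) and the totals over all copies of a step (black diamonds). The kinase totals sit at -0.03 to -0.06 with narrow intervals across 0, while eiger sits at 0.50 and the Grindelwald total at -0.78 with a wide interval.

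The 2 MAP3K7 genes among the 8 and the 2 hemipterous genes among the 8 were also summed by themselves. The MAP3K7 pair stood at 45.6 ± 1.67 CPM in OE ovaries and 49.5 ± 4.27 CPM in NC ovaries (SD, n = 3 each), with an exact permutation p of 0.3 (two-sided, over libraries). The hemipterous pair stood at 160 ± 9.33 CPM in OE ovaries and 185 ± 22.9 CPM in NC ovaries (SD, n = 3 each), with an exact permutation p of 0.2 by the same test. These sums do not depend on how reads were divided within the pair. They leave out the third copy, so they still depend on any division of reads with it.

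The rest of the pathway was taken from gene descriptions, 42 genes in all with the 8 included. Of these, 38 were tested, 17 with a positive and 21 with a negative log2 fold change, and the median was -0.02. Neither edgeR nor DESeq2 called any of them over all genes, while 2 were higher and 3 lower at an unadjusted p under 0.05, beside 2.42% and 2.5% of all genes tested. Without the 8, 30 genes were tested, 16 positive and 14 negative, with a median of 0.01 and 1 gene in each direction at an unadjusted p under 0.05.

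Of those 2, the higher one was transcription factor AP-1 (LOC109408179), the Jun subunit through which JNK acts on transcription. It had 748, 760 and 663 counts in OE libraries and 654, 650 and 629 in NC libraries, all whole numbers. Every OE library lay above every control, with OE library 3 the closest to them. In edgeR the log2 fold change was 0.20 ± 0.08 (SE) and the unadjusted p 0.031, with 0.963 after adjustment. Its partner Kayak was represented by 2 genes, LOC109410132 and LOC109415362, with log2 fold changes of 0.06 ± 0.16 and 0.01 ± 0.14 (SE). The edgeR adjusted p was 0.985 and 0.998. Estimates of both Kayak genes have decimals in all 6 libraries, so each value may depend on how reads were divided. The lower one was the Gadd45 alpha-like gene LOC109423337, whose family is named in the series title as acting above JNK, at 18.2 ± 1.91 CPM in OE ovaries and 26.1 ± 3.89 CPM in NC ovaries (SD, n = 3 each). Its edgeR adjusted p was 0.963, and its estimates have decimals in all 6 libraries. Other tested Gadd45 alpha-like genes had overlapping groups. Their log2 fold changes were 0.65 ± 0.33 for LOC109423338, -0.07 ± 0.33 for LOC115261964 and -0.02 ± 0.10 for LOC115265440 (SE). These estimates have decimals too, those of LOC115265440 in all 6 libraries. The value of any single Gadd45 alpha-like gene, LOC109423337 included, may therefore depend on how reads were divided among the copies.

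Among the adaptors, 10 genes were tested, 3 positive and 7 negative. The highest CPM (not per length) were those of Gadd45 alpha-like LOC115265440, with a log2 fold change of -0.02 ± 0.10 (SE), and LOC109402363, named for TAB1, a TAK1-binding activator in mammals, with 0.11 ± 0.15 (SE). Estimates of both have decimals in every library, so these values too may depend on how reads were divided. All 6 TRAF and TAB genes had overlapping groups. Of 18 kinases at the MAP4K, MAP3K, MAP2K and JNK levels, 6 were positive and 12 negative, and these included the 6 kinase genes among the 8. The MAP3K genes with whole counts in all libraries, MAP3K13, MAP3K11-like, MAP3K15-like and MAP3K4, had log2 fold changes of -0.14, -0.14, -0.04 and -0.03 with edgeR adjusted p of 0.963 to 0.993. Scaffolds of the pathway were tested in 4 of 6 genes. The POSH-related SH3RF1-like genes LOC109420344 and LOC109401673 had log2 fold changes of -0.05 ± 0.09 and 0.01 ± 0.18 (SE), from estimates with decimals in every library. Among JNK-interacting proteins, which hold kinases of the relay together, the tested genes had larger positive values with overlapping groups. The log2 fold changes were 0.44 ± 0.23 (SE) for LOC109411160 (JNK-interacting protein 3-like) and 0.63 ± 0.36 (SE) for LOC109413987 (JNK-interacting protein 1). The edgeR adjusted p was 0.963 for both, and LOC109413987 had no more than 18.43 estimated counts in any library. Below the filter, JNK-interacting protein 1-like LOC109399190 went the other way without overlap. It had 0 estimated counts in each OE library and 7.42, 7.93 and 0.68 in NC libraries. LOC115263429, also below the filter, had 4.6, 7.57 and 7.6 in OE libraries and 0, 8.13 and 8 in NC libraries. Estimates of LOC109413987, LOC109399190 and LOC115263429 have decimals, so at these few reads each value may depend on how reads were divided. Their opposite signs are thus not separate results. The median of the 4 tested scaffold genes was 0.23, and none of the 4 was at an unadjusted edgeR p under 0.05.

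**Figure D4:**
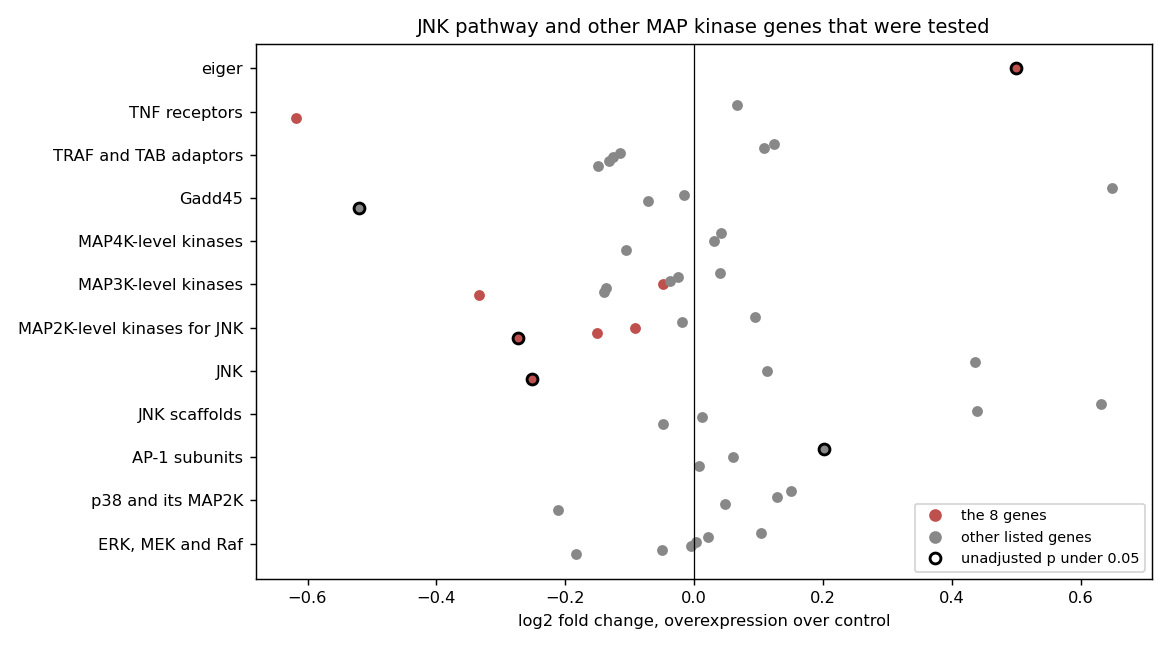
Log2 fold change of overexpression over control for each tested gene of the JNK pathway list and of the p38 and ERK branches, grouped by role; red points are the 8 genes and a black ring marks an unadjusted edgeR p under 0.05. Eiger at 0.50 and AP-1 at 0.20 are the ringed points to the right of 0, with 3 ringed points to the left.

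The parallel MAP kinase branches served as a comparison, with 10 genes of the p38 and ERK relays tested. None was called by edgeR or DESeq2 and 0 were at an unadjusted p under 0.05 by edgeR, with 6 positive, 4 negative and a median log2 fold change of 0.01. MAP kinase kinase 6 (LOC109431380), which acts on p38 in mammals, had 194 ± 10.1 CPM in OE ovaries and 187 ± 3.92 CPM in NC ovaries (SD, n = 3 each). The p38b-like gene LOC109420146 had 89.1 ± 3.97 CPM in OE ovaries and 80.3 ± 4.20 CPM in NC ovaries (SD, n = 3 each), with no overlap and an edgeR adjusted p of 0.963. Other p38b-like genes on its scaffold, LOC109431243 and LOC115253754, overlapped between groups, with log2 fold changes of -0.21 ± 0.12 and 0.13 ± 0.14 (SE). Estimates of all these p38b-like genes have decimals in every library, so the value of a single copy may depend on how reads were divided. For ERK (LOC109417712, MAP kinase 1-like) and Raf (LOC109418642) the log2 fold changes were 0.00 ± 0.08 and -0.05 ± 0.08 (SE).

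Depth was even, at 15719412 to 16111124 estimated counts per OE library and 15919841 to 16465531 per NC library. The tissue label was checked against germline genes such as vasa, nanos and oskar, whose 12 listed genes summed to 7183 to 7299 CPM in OE libraries and 6845 to 7208 CPM in NC libraries. Eggshell genes of the follicle cells (27 genes) summed to 6201 to 6703 CPM in OE libraries and 6307 to 6460 CPM in NC libraries. Of the 19 eggshell genes tested, 2 were higher and 0 lower at an unadjusted edgeR p under 0.05, with 0 called. Marker sums for muscle moved with the groups, at 2513 to 2616 CPM in OE libraries and 2711 to 2721 CPM in NC libraries (73 genes, 0 at zero in all libraries). Of the 55 muscle markers tested, 8 were lower and 1 was higher at an unadjusted p under 0.05, beside 2.5% and 2.42% of all genes tested, with 0 called. Markers of the midgut (135 genes matched, 14 tested) summed to 146 to 185 CPM in OE libraries and 185 to 197 CPM in NC libraries, with no overlap. Haemocyte (111 genes) and fat body (20 genes) sums overlapped between the groups. At an unadjusted p under 0.05, 5 of 59 haemocyte markers tested were lower and 0 higher, as were 1 and 0 of 6 fat body markers, while 1 of 14 midgut markers was lower and 1 higher. The part of these marker differences in the values of eiger and the kinases was not tested.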

How the data were processed

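RNA-seq of ovaries was analysed in 2 groups of 3 libraries, mapped by sample titles. Estimated counts, unscaled and with 2 decimals, came as a single gene table that the authors deposited. HISAT and Bowtie2 are named in the submitters' processing notes, while the counting program, genome build and strand setting are not given in these sources. Of 34479 rows, 10950 blank ones were left out (0 count columns belonged to no sample). Positions are those of the deposited table.

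Counts were rounded, filtered with filterByExpr, scaled by TMM and tested with edgeR 4.0.16 in R 4.3.3 over all 15540 genes kept, with Benjamini-Hochberg adjustment at 0.05 and no covariate. SEs follow from the F statistic. Intervals use the t distribution of the fit. CPM divides unrounded estimates by TMM-scaled totals. DESeq2 1.42.0 and limma-voom (limma 3.58.1) were alternatives, and the procedure was tested on simulated data. Exact tests of single genes used log2 of CPM plus 0.5. Step totals replaced the copies in the same fit.

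The 8 genes and the lists were chosen with earlier results of these data known. Named were the 8, listed pathway genes at an unadjusted p under 0.05, up to 2 per role by CPM, and the 3 genes most like eiger. Other named copies, MAP3K, Kayak and JNK-interacting protein genes were chosen after their values were seen. Marker patterns for haemocytes and midgut catch broad protease and adhesion families.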

Additional observations from a re-analysis of the deposited data

How the results depend on the processing

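Of 246 values recomputed under alternative settings, 236 kept both sign and call (for counts, lay within 1.5 times the reported one), 7 moved and 3 changed direction. No gene among the 8, no step total and no other JNK pathway gene passed an adjusted p of 0.05 under any setting run. The 2 genes called in the whole table became 15 with the DESeq2 Wald test and 0 with the replicate block, and 0 to 2 when 1 library was left out (0 without OE library 1, OE library 3, control 1 or control 2). JNK pathway genes at an unadjusted p under 0.05, 5 in all, numbered 3 to 6 when 1 library was left out, 3 of them without OE library 1. When 1 library was left out, log2 fold changes ranged from -0.14 to 0.026 for LOC109425252 and from -0.16 to 0.014 for LOC115254113, both positive without control 2, and from -0.091 to 0.0085 for the MAP3K7 total, positive without OE library 3.

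Same-numbered libraries were not paired by the data, since their deviations correlated at -0.01, 0.04 and -0.01 for numbers 1, 2 and 3. With the replicate block the log2 fold change was 0.50 for eiger, -0.27 for LOC109402022 and -0.25 for LOC109429565, and the block changed no call among the 8. Depth limits the Grindelwald step, with at most 20 counts per library over both genes.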
